A study of Homo sapiens with 8 samples.

Results

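Transcripts of 10 human genes were followed from undifferentiated stem cells into ectoderm, endoderm and mesoderm: the stress transcription factors ATF4 and DDIT3, the ATF4 targets TRIB3, SESN2 and ASNS, the serine synthesis enzymes PHGDH, PSAT1 and PSPH, and the mitochondrial folate enzymes SHMT2 and MTHFD2. They were chosen by name, from knowledge of the pathway, with earlier results of these data known. Their counts beside those of all tested genes are therefore a description. They are 10 of the 20195 named genes with reads. A gene's count was the sum over the transcripts that the deposited assembly assigns to it, which for the 10 genes came to 44 of 96614 transcripts.

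All cells came from the embryonic stem cell line H1, and each of the 4 groups had 2 libraries of long reads of polyA RNA (PacBio Sequel II). Undifferentiated cells (hPSC) grew in mTeSR1 on Matrigel. Ectoderm cells were kept in DMEM/F12 with 15% KOSR (a serum replacement), 0.2X non-essential amino acids, 55 µM β-mercaptoethanol and the inhibitors A83-01, PNU-74654 and Dorsomorphin at 2 µM each. Endoderm cells were kept in RPMI with 2X GlutaMax, 0.2X non-essential amino acids, 55 µM β-mercaptoethanol, 0.5% FBS, Activin A at 100 ng/ml and WNT3A (labelled 50 nM/ml). Mesoderm cells were kept in DMEM/F12 with the same GlutaMax, amino acid, β-mercaptoethanol and FBS additions, VEGF and BMP4 at 100 ng/ml each and bFGF at 10 ng/ml, with Activin A at 100 ng/ml for the opening day only. Differentiated cells were collected after 5 days. The base medium and its amino acid additions differed between the groups, so the effects of cell identity and of medium on these nutrient-responsive genes cannot be told apart. The labels do not say whether repeats were separate cultures, and p-values then measure only the spread between these libraries.

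ATF4 is a basic leucine zipper (bZIP) transcription factor at the end of the integrated stress response. Kinases that sense amino acid shortage, misfolded protein, heme shortage or viral RNA phosphorylate the initiation factor eIF2, which slows general translation while upstream reading frames in the ATF4 mRNA let more ATF4 protein be made. ATF4 then drives genes for amino acid import and synthesis, among them the enzymes that make serine from a glycolytic intermediate (PHGDH, PSAT1, PSPH in that order) and those that pass its carbon to folate in mitochondria (SHMT2, MTHFD2). Because much of this control is on translation, the mRNA level of ATF4 does not measure the amount of ATF4 protein.

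ASNS, asparagine synthetase, is a classic ATF4 target, and a CCAAT-enhancer-binding protein and ATF response element lies upstream of its start. The bases upstream of 3 starts are shown because they let a reader see that element beside serine synthesis promoters. RefSeq's window held 8 of the 10 genes (GRCh38.p14), without PSPH and SHMT2. The motif TGATGNAA, searched on both strands in the 250 bases before the start, was found in 1 of these 8, against 3.14% of 35114 windows in the table. That match, TGATGAAA in ASNS, lay from 68 to 61 bases before the start and is in capitals. The ASNS window is chr7:97872409-97872658 (minus strand), the PHGDH window chr1:119711684-119711933 (plus) and the PSAT1 window chr9:78296875-78297124 (plus), each 5′ to 3′.
ASNS: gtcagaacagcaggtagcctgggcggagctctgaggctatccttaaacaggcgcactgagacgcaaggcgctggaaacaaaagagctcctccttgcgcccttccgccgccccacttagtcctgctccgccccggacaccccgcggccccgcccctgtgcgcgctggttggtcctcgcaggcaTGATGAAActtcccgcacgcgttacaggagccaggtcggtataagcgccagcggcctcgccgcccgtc
PHGDH: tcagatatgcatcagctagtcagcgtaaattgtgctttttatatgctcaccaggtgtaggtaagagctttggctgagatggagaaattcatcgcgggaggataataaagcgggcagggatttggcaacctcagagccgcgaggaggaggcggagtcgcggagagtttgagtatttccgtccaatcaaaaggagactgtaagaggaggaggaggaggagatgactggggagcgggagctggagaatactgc
PSAT1: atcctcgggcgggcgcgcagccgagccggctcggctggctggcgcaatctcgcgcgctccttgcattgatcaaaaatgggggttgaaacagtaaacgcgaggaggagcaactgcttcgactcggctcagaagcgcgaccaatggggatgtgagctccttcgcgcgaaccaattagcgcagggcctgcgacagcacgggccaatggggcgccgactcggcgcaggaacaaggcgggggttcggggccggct
Other forms of the element were not searched, and the absence of these letters in the other windows says nothing about ATF4 binding there.

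The libraries held from 503840 to 1180888 reads. Marker lists were read beside the labels. Pluripotency markers summed to 3559 and 3238 CPM (reads per 1000000 reads of the library) in hPSC, and still to 1957 and 1662 in endoderm and 1244 and 1626 in ectoderm, against 290 and 272 in mesoderm. Their part in the comparisons with hPSC was not tested. Endoderm markers summed to 2271 and 2387 CPM in endoderm and to at most 15.1 in any other library, with all 7 detected in both. Ectoderm markers summed to 1005 and 791 CPM in ectoderm and to 77.03 to 422 in hPSC and endoderm. Mesoderm markers summed to 1058 and 1151 CPM in mesoderm, with 2 and 3 of the 7 at 0 there, and to 37.2 to 213 in the other groups, with 0 and 1 at 0 in endoderm. In mesoderm 7 of 7 amnion or trophoblast markers were also present, at 1371 and 1435 CPM against at most 82.0 elsewhere. The part of such cells in the mesoderm results was not tested. Libraries also differed in the length of what was read: the mean length of the counted transcripts was 3298 and 3114 bases per read in hPSC, 3073 and 2975 in endoderm, 3765 and 3840 in mesoderm and 4406 and 4650 in ectoderm. Of the 10 genes, 9 have shorter transcripts than the median tested gene (median 2265 against 3826 bases). A fit with the length trend removed was also made, and the calls of these genes that it ends are given with each gene or comparison. In bulk RNA, fewer expressing cells and less RNA per cell cannot be told apart.

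In ectoderm all tested genes of the pathway were lower, DDIT3 having too few reads to test. With edgeR's quasi-likelihood test, adjusted over 10847 genes, 9 of 9 tested genes fell against hPSC, while 24.8% of all tested genes fell and 48.6% were called in either direction. Their median log2 fold change was -2.48, against -0.01 over all tested genes. With the length trend removed the 9 genes were still called lower, from -0.83 to -2.60, with falls over 1.5 times smaller for ATF4 (-2.05), PHGDH (-1.67), SHMT2 (-1.87) and PSAT1 (-0.83). That fit called 7 of 9 in mesoderm and 3 of 9 in endoderm, all lower. Of 10847 tested genes it called 3909 in ectoderm (2145 lower), 3427 in mesoderm (1799 lower) and 2987 in endoderm (1383 lower). In CPM, which are not TMM-scaled, the lowest hPSC library exceeded the highest ectoderm library for 9 of the 10 genes. How often this holds over all genes was not counted, so it cannot be read as particular to these genes. In mesoderm 8 of 9 fell (all tested genes 18.2% lower, 35.1% in either direction), with a median of -1.89 against 0.01 over all tested genes. In endoderm 4 of 9 fell (all tested genes 13.7% lower, 27.2% in either direction), namely PHGDH, ASNS, PSAT1 and MTHFD2, with a median of -0.85 against -0.13. Leaving out either endoderm library left 0 of these 4 called, though their log2 fold changes stayed between -0.58 and -1.44, and without the second hPSC library PHGDH was the one of them still called. These 3 comparisons share the hPSC libraries.

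**Figure D1:**
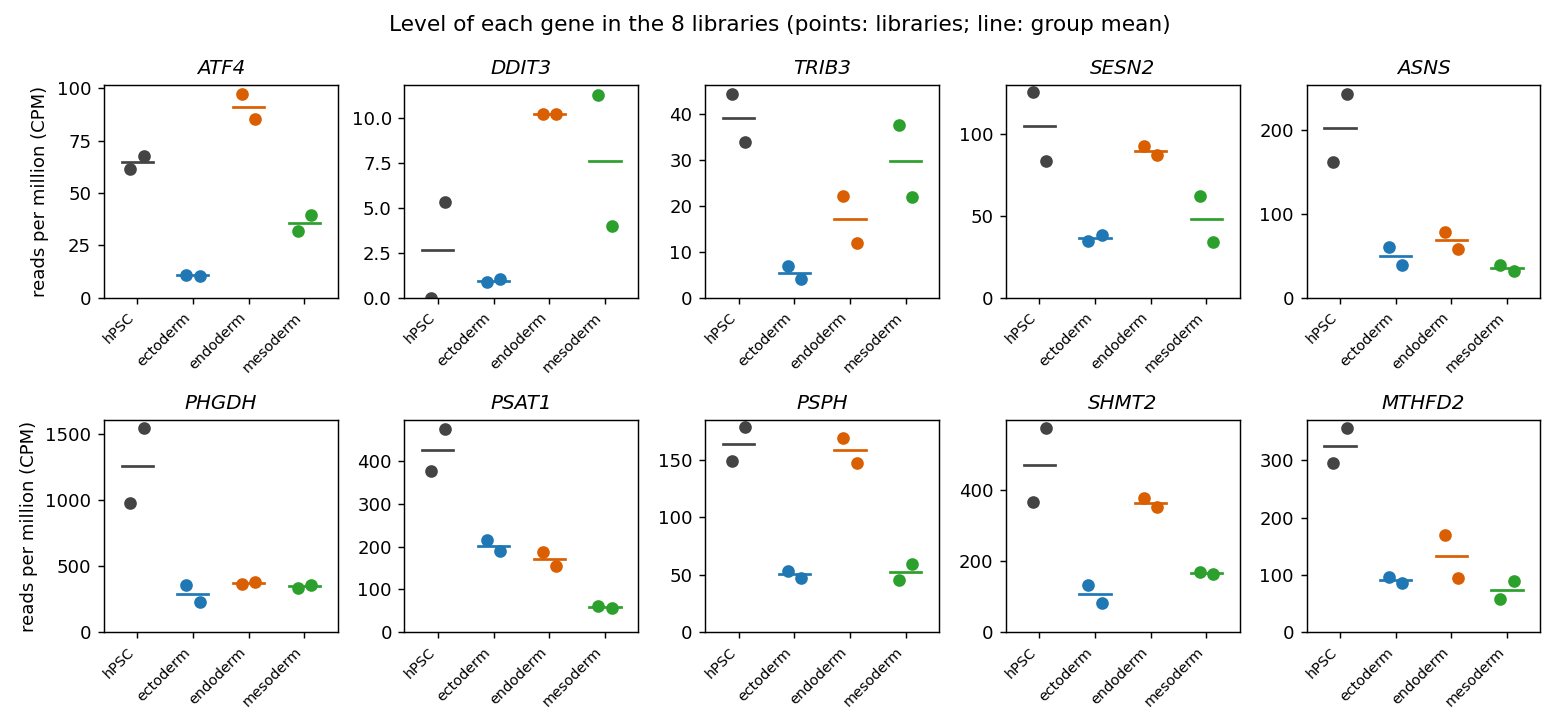
Reads per 1000000 reads of the library (CPM, linear axis from 0, own scale per gene) for each of the 10 genes in the 8 libraries; points are libraries and lines are means of 2. Ectoderm points lie below both hPSC points for every gene but DDIT3, and ATF4 and DDIT3 are the genes whose endoderm points lie above both hPSC points.

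ATF4 itself (chr22:39519705-39522683, plus strand, GRCh38) was measured at 61.6 and 67.6 CPM in hPSC, 97.3 and 85.3 in endoderm, 32.0 and 39.7 in mesoderm and 11.01 and 10.3 in ectoderm. The 4 groups did not overlap, in the order endoderm, hPSC, mesoderm, ectoderm. It was 8.02-fold lower in ectoderm than in hPSC (log2 -3.00 ± 0.37 SE, n = 2 libraries each, edgeR adjusted p = 2.24e-05). In mesoderm the log2 fold change was -1.09 ± 0.35 (edgeR adjusted p = 0.0233). That call was not made with the length trend removed (-0.69, adjusted p = 0.131), with library totals in place of TMM (adjusted p = 0.0618), with DESeq2's Wald test (adjusted p = 0.124), without the second hPSC library (adjusted p = 0.0856) or without either mesoderm library (adjusted p = 0.178 and 0.0896). The endoderm value was 0.82 ± 0.31 and missed the threshold (edgeR adjusted p = 0.0602), and it passed with DESeq2's size factors (adjusted p = 0.0474), with all transcripts listed under the gene (adjusted p = 0.0493) and without the second hPSC library (adjusted p = 0.0110). Endoderm against ectoderm gave the widest separation among the 10 genes, 14.2-fold (edgeR adjusted p = 7.72e-07). For ectoderm over endoderm the log2 value of -3.82 became -3.01 with library totals and -2.83 with the length trend removed, both still called.

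DDIT3 (CHOP, a bZIP factor induced downstream of ATF4 and tied to stress-induced cell death) had 25 reads in all and did not pass the filter on low counts. It had 0 and 3 reads in hPSC, 6 and 6 in endoderm, 6 and 2 in mesoderm and 1 and 1 in ectoderm. Endoderm pooled to 3.69 times the hPSC level, with a 95% exact interval from 0.996 to 20.4 that covers counting error only, so no difference from hPSC was detectable at this depth.

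TRIB3 encodes a pseudokinase that is induced by ATF4 and damps its activity. Its level was 44.3 and 33.8 CPM in hPSC, 22.2 and 11.9 in endoderm, 37.7 and 21.8 in mesoderm and 6.77 and 4.14 in ectoderm. Ectoderm libraries were the lowest, while the mesoderm libraries overlapped hPSC. The fall in ectoderm was 9.02-fold (log2 -3.17 ± 0.47, edgeR adjusted p = 1.06e-04). The values for endoderm (-0.85 ± 0.44) and mesoderm (-0.61 ± 0.41) did not pass, with edgeR adjusted p of 0.172 and 0.267.

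SESN2, sestrin 2, is an ATF4 target that binds leucine and restrains mTORC1 when leucine is short. It stood at 125 and 83.6 CPM in hPSC, 92.2 and 87.0 in endoderm, 62.1 and 33.7 in mesoderm and 34.7 and 38.3 in ectoderm. Endoderm lay within the hPSC range and the other layers below it. SESN2 fell 3.78-fold in ectoderm (log2 -1.92 ± 0.33) and 2.51-fold in mesoderm (-1.33 ± 0.34), with edgeR adjusted p of 3.08e-04 and 0.00765. Without the second mesoderm library the mesoderm value was -0.89 and was not called.

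ASNS was measured at 162 and 244 CPM in hPSC, 78.6 and 58.0 in endoderm, 39.5 and 31.8 in mesoderm and 60.1 and 39.3 in ectoderm. Every layer lay below both hPSC libraries. The falls were 5.56-fold in ectoderm, 2.42-fold in endoderm and 6.82-fold in mesoderm (edgeR adjusted p = 8.95e-05, 0.0167 and 8.34e-05). Endoderm was 2.82-fold above mesoderm (edgeR adjusted p = 0.00838), a call that library totals in place of TMM did not give (log2 0.90, adjusted p = 0.0637), nor did the fits without the first endoderm or the second mesoderm library (adjusted p = 0.0638 and 0.0752).

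PHGDH, the committing enzyme of serine synthesis, was measured at 976 and 1541 CPM in hPSC, 362 and 377 in endoderm, 333 and 359 in mesoderm and 355 and 231 in ectoderm. The hPSC repeats lay far apart, yet both were above all 6 differentiated libraries. Log2 fold changes against hPSC were -2.57 ± 0.36 in ectoderm, -1.48 ± 0.35 in endoderm and -2.14 ± 0.36 in mesoderm, with edgeR adjusted p of 7.18e-05, 0.00613 and 3.56e-04. PHGDH was not called between endoderm and mesoderm (0.67 ± 0.36, edgeR adjusted p = 0.135).

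PSAT1, the aminotransferase of the next step, stood at 376 and 475 CPM in hPSC, 188 and 154 in endoderm, 62.1 and 57.6 in mesoderm and 215 and 189 in ectoderm. Mesoderm was lowest, with no overlap with any other group. The fall in mesoderm was 8.49-fold (log2 -3.09 ± 0.34, edgeR adjusted p = 7.96e-06), while ectoderm fell 2.87-fold and endoderm 2.02-fold. PSAT1 was the single tested gene of the 10 that was higher in ectoderm than in mesoderm (1.56 ± 0.33, edgeR adjusted p = 0.00211), where ATF4 (-1.91 ± 0.40) and TRIB3 (-2.57 ± 0.50) were lower and the other 6 were not called. The TRIB3 call was not made without the first mesoderm library (adjusted p = 0.0522). In that comparison 18.2% of all tested genes were called higher and 17.2% lower, 35.4% in all.

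PSPH, the phosphatase that releases serine, was measured at 148 and 178 CPM in hPSC, 169 and 147 in endoderm, 45.2 and 59.5 in mesoderm and 53.3 and 47.6 in ectoderm. Endoderm overlapped hPSC and the other layers were well below. PSPH fell 4.38-fold in ectoderm and 3.71-fold in mesoderm (edgeR adjusted p = 1.18e-04 and 5.74e-04). The endoderm value was 0.27 ± 0.31 (edgeR adjusted p = 0.565).

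SHMT2, the mitochondrial enzyme that splits serine into glycine and a folate-bound carbon, was measured at 366 and 571 CPM in hPSC, 377 and 350 in endoderm, 169 and 163 in mesoderm and 132 and 81.7 in ectoderm. Endoderm again lay at the hPSC level. Log2 fold changes were -2.59 ± 0.36 in ectoderm and -1.77 ± 0.36 in mesoderm (edgeR adjusted p = 6.68e-05 and 0.00151), against -0.07 ± 0.34 in endoderm (edgeR adjusted p = 0.907).

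MTHFD2, the mitochondrial dehydrogenase and cyclohydrolase that carries that carbon onward, stood at 295 and 356 CPM in hPSC, 169 and 95.5 in endoderm, 58.4 and 89.3 in mesoderm and 96.5 and 85.8 in ectoderm. All layers were below hPSC. It fell 4.85-fold in ectoderm and 5.26-fold in mesoderm (edgeR adjusted p = 1.25e-04 and 1.44e-04). The fall in endoderm was 1.99-fold (edgeR adjusted p = 0.0419). This last call was not made with the length trend removed (adjusted p = 0.0601) or with DESeq2's Wald test (adjusted p = 0.0870).

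**Figure D2:**
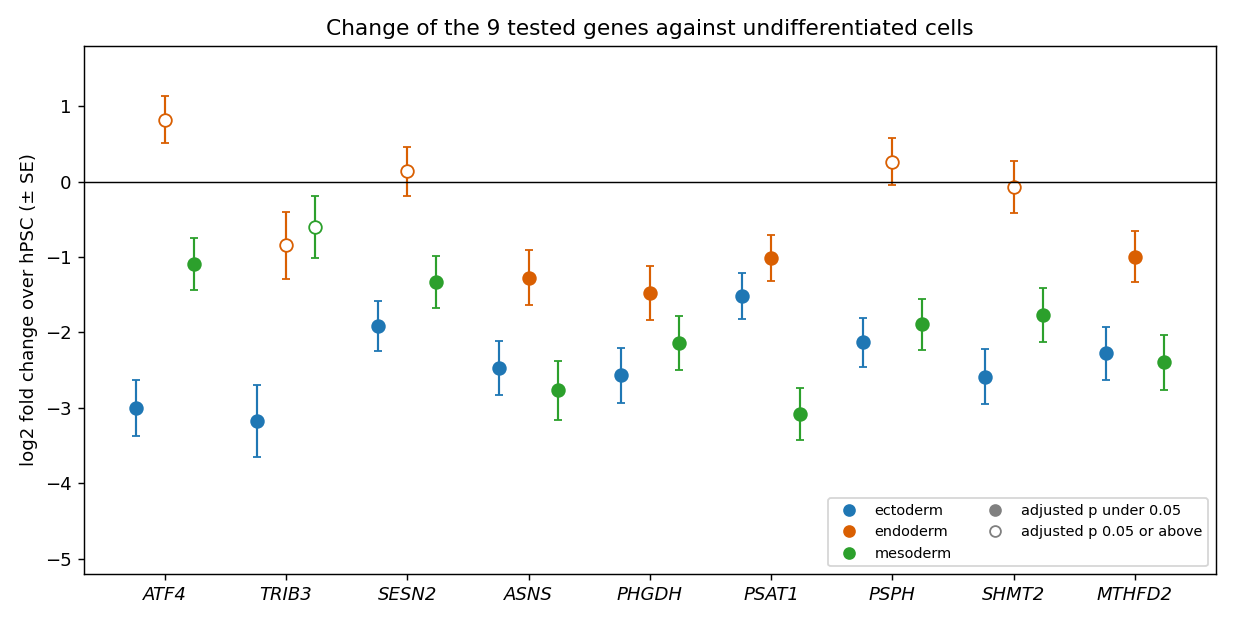
Log2 fold change of each layer over hPSC (edgeR, TMM) for the 9 tested genes; bars are the SE, filled points have an adjusted p under 0.05 and open points do not. Ectoderm values run from -1.52 for PSAT1 to -3.17 for TRIB3, whereas endoderm values of ATF4, SESN2, PSPH and SHMT2 lie from -0.07 to 0.82 and are open.

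The layers were also set against each other. Ectoderm was lower than endoderm for 8 of 9 genes (all tested genes 29.9% lower, 63.1% in either direction), with PSAT1 not called. With the length trend removed it was 7, without PHGDH (-0.18, adjusted p = 0.646), and SHMT2 went from -2.52 to -1.80. That fit called 3162 of 10847 tested genes lower. With library totals in place of TMM the count was 5, namely ATF4, PSPH, SHMT2, TRIB3 and SESN2, and it was 5 without the second ectoderm library and 4 without the first endoderm library. Endoderm was higher than mesoderm for 7 of 9 genes (all tested genes 23.2% higher, 47.1% in either direction), with PHGDH and TRIB3 not called. Library totals left 4 of these 7. Of 10847 tested genes they gave 1958 lower in ectoderm than endoderm and 1475 higher in endoderm than mesoderm. On that scaling the median of all tested genes moved to 1.00 for ectoderm against endoderm and to -0.76 for endoderm against mesoderm, from 0.19 and -0.16 with TMM, so these counts depend on the scaling more than those against hPSC do.

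The assembled transcripts of a gene also differed in where they began. Nearly all ASNS reads were assigned to transcripts that do not start at the promoter printed above. Of 447 reads, 402 (89.9%) lay on 4 assembled transcripts starting at chr7:97972355-97972361, 99953 bases upstream of the printed promoter's start for the most-read one, at the start of the RefSeq read-through locus CZ1P-ASNS (a non-coding RNA, chr7:97852117-97972358). These 4 transcripts have 16 to 19 exons, and all 8 assembled ASNS transcripts hold the annotated start codon (chr7:97869154-97869156, GENCODE 29) in an exon. Transcripts starting within 50 bases of the RefSeq start held 12 reads. The share on the upstream start was 93.4% ± 0.952 (SD, n = 2) in hPSC, 81.7% ± 7.41 in endoderm, 85.9% ± 6.52 in mesoderm and 91.0% ± 5.24 in ectoderm. The counts show which transcript a read was assigned to, not whether the read itself reached the upstream exons. Each of the 4 was found in 1 of the 4 group assemblies. Counting only transcripts that match the reference removed ASNS from the tested genes.

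Assembled PSPH transcripts began at 3 places, and their use is described without a test because the classes were drawn after their values were seen. As for ASNS, the counts show the transcript a read was assigned to, not where the read itself began. Of 525 reads, 245 lay on 4 transcripts that start inside the gene, at chr7:56034171 or chr7:56034594, rather than at the annotated promoter (5′ ends from 56051444 to 56051597). A further 3 transcripts start at 56116265, inside the neighbouring gene NUPR2. All 15 PSPH transcripts hold the start codon (chr7:56021210-56021212) in an exon. They also differ in exon number, from 4 to 9, and whether the rest of the coding sequence is the same was not checked.

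Starts inside the gene took 44.2% and 43.0% of PSPH reads in hPSC (34 of 77 and 43 of 100) and 69.7% and 67.4% in endoderm (69 of 99 and 58 of 86). The 95% Wilson intervals, which cover counting error only, were 33.6% to 55.3% and 33.7% to 52.8% in hPSC, and 60.0% to 77.9% and 57.0% to 76.4% in endoderm. They took 19.0% and 32.6% in ectoderm, and in mesoderm they held 2 of 24 and 12 of 30 reads. Endoderm libraries were the highest and did not overlap any other group. In CPM, reads from inside starts were 71.0 ± 7.80 in hPSC and 108 ± 13.4 in endoderm (SD, n = 2), while reads from the annotated promoter were 81.3 ± 3.30 in hPSC and 42.7 ± 2.45 in endoderm, beside ectoderm (32.4 ± 2.02) and mesoderm (33.8 ± 2.84). In endoderm the inside starts were above and the promoter starts below both hPSC libraries. With only the 2 reference-matching transcripts counted, the endoderm value of PSPH was -0.86 ± 0.48 (edgeR adjusted p = 0.201) in place of 0.27.

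**Figure D3:**
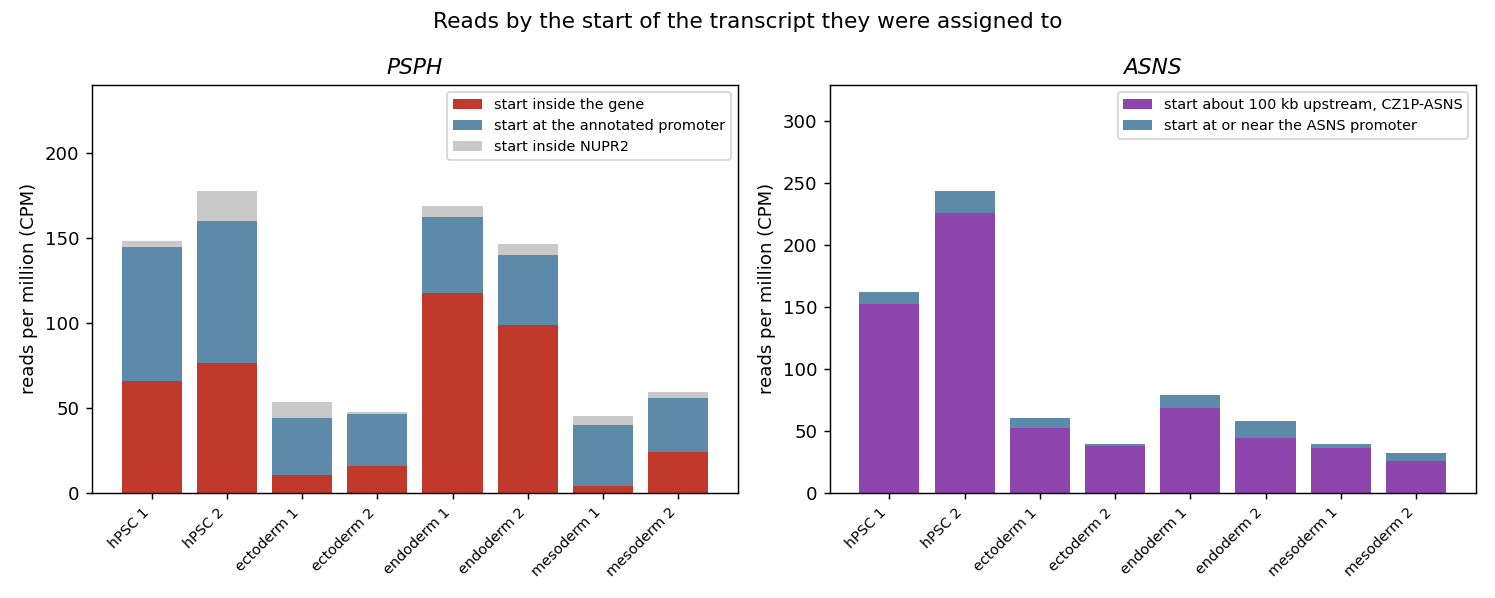
Reads per 1000000 reads of the library (CPM, stacked, from 0) assigned to PSPH and ASNS transcripts by where the transcript starts, 1 bar per library. In endoderm the PSPH starts inside the gene make up 69.7% and 67.4% of reads, and in every library the ASNS upstream start exceeds the starts near the promoter.

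ATF4 reads were assigned about evenly to transcripts with a start at 39519705 (ENST00000404241, 118 reads) and at 39520562 (ENST00000674920 and ENST00000337304, 119 reads). The upstream start took 50.0% of the reads in both hPSC libraries, 47.6% ± 2.21 in endoderm, 49.2% ± 15.2 in ectoderm and 57.4% ± 10.4 in mesoderm (SD, n = 2). In GENCODE 29, ENST00000404241 has 6 upstream start codons before the main one and ENST00000337304 has 7, and in each 2 of their reading frames run past the main start. ENST00000337304 held 31 of the 119 reads at its start. ENST00000674920, with the other 88, is not listed in GENCODE 29, and its upstream start codons were not counted. Upstream frames of this kind are the known means of control of ATF4 translation.

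SHMT2 reads lay mostly on ENST00000328923, whose start codon is at 57229779. ENST00000414700, which starts at 57230062 and whose annotated start codon is further downstream at 57230833, held 11 and 17 reads in hPSC (5.54% ± 0.349), 21 and 17 in endoderm (8.90% ± 0.855), 1 and 1 in mesoderm (1.17% ± 0.0767) and 4 and 3 in ectoderm (3.18% ± 0.872). MTHFD2 had 2 transcripts of the nonsense-mediated decay type in GENCODE 29, and together they took from 12.9% to 33.3% of its reads in the 8 libraries. Ectoderm (28.9% and 31.3%) lay above hPSC (24.2% and 28.5%) and endoderm (20.2% and 26.8%), and mesoderm (12.9% and 33.3%) spanned them all. PSAT1's shorter form, ENST00000347159, held 12.3% of pooled reads in hPSC, 5.50% in endoderm, 6.45% in mesoderm and 8.47% in ectoderm. PHGDH was read almost wholly as ENST00000641023 (96.1% to 97.6% of pooled reads by group), and SESN2 had 1 transcript.

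A test of transcript choice within genes (edgeR's diffSpliceDGE, Simes p adjusted over 2638 genes) could be run on 6 of the 10 genes: ATF4, ASNS, PSAT1, PSPH, SHMT2 and MTHFD2. It called 0 of 6 in each layer against hPSC, where 2.58% of genes were called in ectoderm, 2.12% in endoderm and 2.99% in mesoderm. At an unadjusted Simes p under 0.05 the counts were 0, 0 and 1 of 6, against 10.2%, 9.89% and 11% of all genes tested, the last being SHMT2 in mesoderm (edgeR adjusted p = 0.366). For ASNS only the 4 transcripts of the upstream start entered, so that start was not compared with the promoter. For PSPH 3 of 15 transcripts entered, none starting inside NUPR2, so its start classes were not compared as wholes.

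The genes around ATF4 were read from 7 lists, also chosen with earlier results of these data known. The share of all tested genes called was 23.8% higher and 24.8% lower in ectoderm, 13.4% and 13.7% in endoderm, 16.9% and 18.2% in mesoderm. Known ATF4 targets outside the 10 genes were more often lower than higher in ectoderm and mesoderm. Of 22 tested targets, 14 were lower and 3 higher in ectoderm, 10 lower and 1 higher in mesoderm, and 5 lower and 4 higher in endoderm. Their median log2 fold changes were -1.66, -1.15 and -0.42, against -0.01, 0.01 and -0.13 over all tested genes. CHAC1, an enzyme that degrades glutathione, had 66 and 143 reads in hPSC, 33 and 23 in endoderm, 2 and 4 in mesoderm and 4 and 2 in ectoderm. It fell in all layers, with log2 fold changes of -6.47 ± 0.55 in ectoderm, -5.28 ± 0.57 in mesoderm and -1.72 ± 0.41 in endoderm (edgeR). PYCR1, which makes proline, fell in ectoderm (-2.86 ± 0.35) and stood at 0.14 ± 0.33 in endoderm. DDIT4, an mTORC1 inhibitor, was lowest in endoderm (-3.01 ± 0.40), as was TXNIP, a regulator of glucose uptake (-2.66 ± 0.65). TXNIP had 10 and 20 reads in hPSC and 2 and 2 in endoderm.

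Some targets that import amino acids rose in endoderm, while SLC7A1, a cationic amino acid transporter, fell. SLC3A2 and SLC7A5, the chains of the transporter LAT1 that brings in leucine and other large neutral amino acids, were the highest endoderm calls of that list. SLC3A2 was measured at 751 and 923 CPM in hPSC, 3091 and 3311 in endoderm, 623 and 532 in mesoderm and 252 and 164 in ectoderm. Its log2 fold change was 2.25 ± 0.35 in endoderm and -2.45 ± 0.36 in ectoderm (edgeR adjusted p = 2.46e-04 and 8.64e-05). SLC7A5 stood at 801 and 183 CPM in hPSC, a wide spread, and at 2343 and 1542 in endoderm (2.40 ± 0.47, edgeR adjusted p = 0.00168). SLC6A9, a glycine transporter, rose in endoderm (1.96 ± 0.34) and fell in mesoderm (-4.34 ± 0.66), where each library had 1 read. SLC38A2, an amino acid transporter of the cell surface, rose in mesoderm (1.26 ± 0.34), and SLC7A11, the cystine importer, in ectoderm (2.01 ± 0.59), a call that was not made with the length trend removed (0.97, adjusted p = 0.233).

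Among 14 genes for eIF2, its exchange factor, kinases and phosphatase subunits, most were not called. PPP1R15A, the stress-induced subunit (GADD34) that directs eIF2 dephosphorylation, had 19 and 15 reads in hPSC, 126 and 121 in endoderm, 67 and 52 in mesoderm and 66 and 38 in ectoderm. It rose by 3.08 ± 0.35 in endoderm and 1.63 ± 0.35 in mesoderm on the log2 scale (edgeR adjusted p = 1.34e-05 and 0.00233), as the 1 member of the list to rise in either. EIF2AK4, the kinase GCN2 that senses amino acid shortage, fell in endoderm (-1.85 ± 0.46), where each library had 7 reads. EIF2B5 also fell there. In ectoderm 4 of the 14 genes fell and 2 rose, near the shares of all tested genes (24.8% lower, 48.6% in either direction). The 4 were subunits of the exchange factor eIF2B, led by EIF2B2 (-2.21 ± 0.41) and EIF2B4 (-1.93 ± 0.32). With the length trend removed, and also with library totals, the list had 3 lower calls. EIF2B3 was the 1 gene to fall in mesoderm (-2.04 ± 0.41). EIF2AK2 (PKR) and PPP1R15B rose in ectoderm, with neither called once the length trend was removed.

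Of 21 tested chaperones of the endoplasmic reticulum and other genes of the unfolded protein response, 10 rose, 0 fell and 11 were not called in endoderm (median 1.11), where 13.4% of all tested genes were higher. In ectoderm 5 rose and 1 fell (median -0.13), and in mesoderm 1 rose and 4 fell (median 0.26). With library totals in place of TMM, 7 rose and 0 fell in endoderm, and 3 rose and 2 fell in mesoderm. HSPA5 (BiP), the main chaperone there, went from 2097 and 2384 CPM in hPSC to 5673 and 5222 in endoderm (1.60 ± 0.34, edgeR adjusted p = 0.00307). SYVN1, a ubiquitin ligase that clears misfolded proteins, rose by 1.84 ± 0.31, and CRELD2 by 1.91 ± 0.55, a value not called with library totals (adjusted p = 0.103). HYOU1 and CALR rose in endoderm and fell in mesoderm, where the CALR call was not made with the length trend removed (adjusted p = 0.122) or with library totals (adjusted p = 0.0723). SEL1L, the partner of SYVN1, rose in all 3 layers, most in ectoderm (3.59 ± 0.41).

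**Figure D4:**
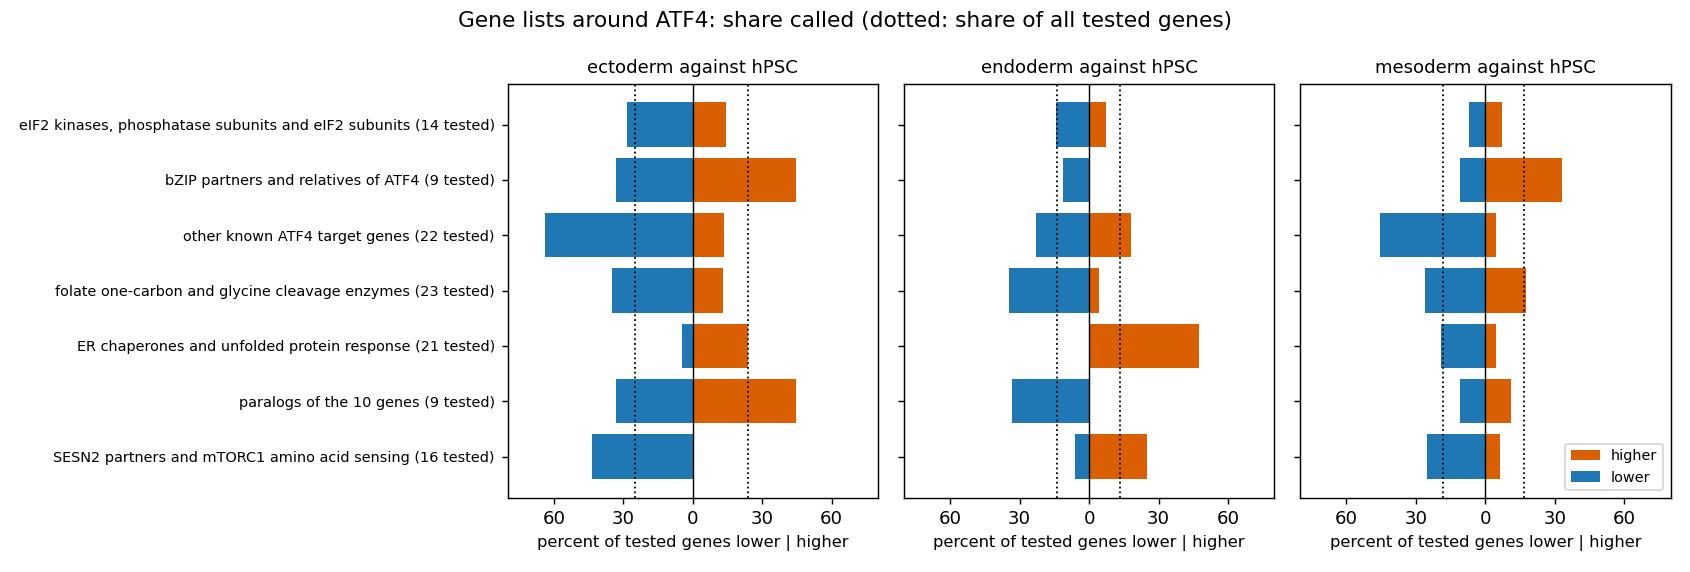
Percent of the tested genes of each list called lower (left) or higher (right) in each layer against hPSC at an edgeR adjusted p under 0.05; dotted lines give the same percent over all tested genes. Known ATF4 targets reach 14 of 22 lower in ectoderm, and chaperones 10 of 21 higher in endoderm.

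Folate and glycine cleavage enzymes outside the 10 genes were mixed. Of 23 tested, 8 fell and 3 rose in ectoderm, 8 fell and 1 rose in endoderm, and 6 fell and 4 rose in mesoderm. In ectoderm the share called was near the 48.6% of all tested genes. With library totals in place of TMM the ectoderm split became 3 lower and 5 higher. MTHFD1, the cytosolic counterpart of MTHFD2, fell in all 3 layers (-2.28 ± 0.32, -1.53 ± 0.32 and -2.16 ± 0.33 in ectoderm, endoderm and mesoderm). AMT, a subunit of the glycine cleavage system, fell most in endoderm (-2.60 ± 0.43), while of the enzymes that use folate carbons to build purines, GART fell in ectoderm and mesoderm and ATIC in all 3 layers. PPAT, which opens purine synthesis, and DLD rose in ectoderm (1.65 ± 0.37 and 1.39 ± 0.31).

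Of 9 tested paralogs, 4 rose and 3 fell in ectoderm, 0 rose and 3 fell in endoderm, and 1 rose and 1 fell in mesoderm, where the share called was below the 35.1% of all tested genes. The endoderm falls of SESN3 and CEBPB rest on few reads, CEBPB having 25 and 1 in hPSC and 0 and 1 in endoderm. SESN3, a paralog of SESN2, moved the other way: it had 3 and 4 reads in hPSC, 0 and 0 in endoderm, 122 and 119 in mesoderm and 152 and 118 in ectoderm. It rose by 3.82 ± 0.43 in ectoderm and 4.90 ± 0.42 in mesoderm on the log2 scale (edgeR), the layers in which SESN2 fell. A floor of 3 reads over both endoderm libraries puts mesoderm at least 91.0-fold above endoderm. SESN1 rose in ectoderm (1.73 ± 0.47), as did ASNSD1, a relative of ASNS (1.08, edgeR adjusted p = 0.0262).

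The sestrin and amino acid sensing list (16 tested) gave 7 lower and 0 higher in ectoderm, 1 lower and 4 higher in endoderm and 4 lower and 1 higher in mesoderm. The share called was near that of all tested genes in each layer (48.6%, 27.2% and 35.1%). Its direction depended on the scaling: with library totals it was 3 lower and 4 higher in ectoderm, 5 lower and 1 higher in endoderm and 0 lower and 1 higher in mesoderm. CASTOR1, an arginine sensor, fell in ectoderm (-2.40 ± 0.49) and CASTOR2 rose in endoderm (2.52 ± 0.45), both also called with library totals.

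Among 9 tested bZIP relatives, 4 rose and 3 fell in ectoderm, 3 rose and 1 fell in mesoderm and 1 fell in endoderm, against 48.6%, 35.1% and 27.2% of all tested genes called in either direction. The endoderm fall was CEBPB, also counted among the paralogs, with 25 and 1 reads in hPSC and 0 and 1 in endoderm. ATF2 and NFE2L2 (NRF2, the oxidative stress factor) rose in ectoderm (2.04 ± 0.37 and 1.93 ± 0.61). NFE2L2 had 8 and 0 reads in hPSC and 46 and 36 in ectoderm. JUN had 5 and 2 reads in hPSC and 57 and 79 in mesoderm (4.09 ± 0.53). CEBPD, at 0 reads in both hPSC libraries, had 22 and 15 in mesoderm, at least 12.9-fold higher against a floor of 3 reads over both hPSC libraries. NFE2L1 fell in ectoderm and mesoderm (-1.53 ± 0.30 and -2.41 ± 0.35).

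Profiles over the 8 libraries (log2 CPM, Pearson r, a description over 4 pairs of repeats that share group and depth) were most alike for ASNS and MTHFD2 (r = 0.96) and for PSPH and SHMT2 (r = 0.96), and least alike for PSAT1 and TRIB3 (r = 0.23), among 36 pairs of the 9 tested genes. Outside the 10, the genes with the profile nearest to ATF4 were ERP29, SEC13 and LDOC1 (r = 0.99 or above), out of 10249 compared. For ASNS they were MRPS21, EIF2B3 and RUVBL1, for PHGDH EEF1AKMT4, ERAL1 and VPS72, and for PSAT1 RCL1, LRP8 and SLC20A1. PRDX1, RPL7L1 and PPIA were nearest to PSPH, METTL2A, PGD and PEPD to SHMT2, and RARG, FAM86B1 and MRPS21 to MTHFD2. For TRIB3 they were VKORC1, FHL3 and OVOL2, and for SESN2 RPL18AP3, NINJ1 and GCHFR (r from 0.97 to 0.99).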

How the data were processed

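Long reads of polyA RNA from 8 H1 libraries were analysed. The authors deposited counts of reads per assembled transcript: whole raw counts with no normalization, per the file headers and values. The deposited columns were checked for expected counts (fractional estimates), none of the 8 held any, and nothing was rounded. GRCh38, StringTie and minimap2 are named in the submitters' processing notes, without versions. How reads shared by similar copies or antisense genes were counted is not given in the sources used here.

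Gene counts are sums over transcripts with the gene's name in the assembly. One intronic PHGDH transcript (4 reads) was left out. CPM values are counts per 1000000 reads of the library. Tests used edgeR 4.0.16 in R 4.3.3: TMM, filterByExpr with a minimum count of 10, 1 quasi-likelihood fit over 8 libraries, 6 comparisons, two-sided, Benjamini-Hochberg over all tested genes at 0.05. The SE is the log2 fold change divided by the square root of F. Transcript choice used diffSpliceDGE. DESeq2 1.42.0 was an alternative, as were other scalings, filters, gene definitions and left-out libraries. The tests were checked on simulated data in which a chosen set of genes was changed in 1 group. Those data lacked the differences in composition and transcript length between these groups, so the check does not cover the scaling. A count of 0 allows up to 3 counts, or 2.54 to 5.95 CPM by library.

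Transcripts are described where they hold at least 5% of a gene's reads in a group with 20 or more. List genes were named by rule: in each layer, up to 2 called genes at either extreme of log2 fold change, provided both libraries of the group with the higher level reached 10 CPM. Other list genes, and values of named genes in further layers, were added after values were seen. Single values of some listed genes are not reported here. The 10 genes and all lists were chosen with earlier results of these data known. Promoter sequences are RefSeq's (GRCh38.p14), and transcript types and start codons are from GENCODE 29.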

Additional observations from a re-analysis of the deposited data

Results flagged for a closer look

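The results below moved in opposite directions against hPSC in a pair of layers, and the pair itself differed in edgeR's test over all genes. ATF4 lay below both hPSC libraries in ectoderm and mesoderm and above both in endoderm, with a log2 fold change of -3.82 for ectoderm over endoderm (adjusted p = 7.72e-07) and 1.91 for endoderm over mesoderm (adjusted p = 3.34e-04). The list genes given here are a selection by the naming rule among those called in both layers, and others outside it, such as HERPUD1 and NPRL3, also moved in opposite directions. Ectoderm over endoderm gave -4.70 for SLC3A2, -5.01 for SLC7A5 and -3.17 for CALR. The same pair gave 3.31 for PPAT and 3.96 for TXNIP, which had 2 and 2 reads in endoderm. Endoderm over mesoderm gave 2.27 for CALR, 2.93 for HYOU1 and 6.30 for SLC6A9. JUN gave -6.53 for ectoderm over mesoderm, its fall in ectoderm resting on 0 and 3 reads against 5 and 2 in hPSC. No group has the 4 libraries that a check for single outlying samples needs.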

How the results depend on the processing

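The 9 falls in ectoderm against hPSC were called under every alternative that could test the gene, whereas the 4 falls in endoderm were not. Member genes called without 1 library ranged from 0 to 4 for endoderm against hPSC and from 4 to 8 for ectoderm against endoderm. Library totals in place of TMM (chosen after seeing the data) gave 5 calls for ectoderm against endoderm and 4 for endoderm against mesoderm. That scaling moved the median log2 fold change of all genes to 0.43, -0.48 and 0.25 in ectoderm, endoderm and mesoderm against hPSC. It changed higher and lower calls over all genes from 2586 and 2688 to 3652 and 1703 in ectoderm, from 1457 and 1489 to 993 and 2213 in endoderm, and from 1831 and 1979 to 2189 and 1468 in mesoderm. Between layers they went from 3594 and 3247 to 5267 and 1958 (ectoderm against endoderm), from 1969 and 1870 to 2441 and 1414 (ectoderm against mesoderm) and from 2519 and 2588 to 1475 and 4019 (endoderm against mesoderm).

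Over all genes, DESeq2's Wald test called 3356, 1836 and 2315 in ectoderm, endoderm and mesoderm against hPSC and 2015 for ectoderm against mesoderm, where edgeR called 5274, 2946, 3810 and 3839. A fit on hPSC and mesoderm alone called 2468. Without 1 library the counts ran from 3293 to 5960, from 1455 to 4067 and from 2012 to 5084 against hPSC, from 1780 to 2336 for ectoderm against mesoderm and from 3390 to 3758 for endoderm against mesoderm. In such fits a lone library is assumed to vary like the other groups.

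Values that changed sign were uncalled ones. Endoderm against hPSC, PSPH was -0.86 with reference-matching transcripts and -0.065 with library totals. SHMT2 was 0.0088 with no filter on low counts and ran from -0.47 to 0.49 without 1 library. SESN2 was -0.24 with library totals and -0.0021 with only those groups fitted. Ectoderm against endoderm, PSAT1 was 0.19 with the length trend removed and 0.30 with library totals. Ectoderm against mesoderm with the length trend removed, PHGDH was 0.090, PSPH 0.11 and MTHFD2 -0.016. Without 1 library, PSPH ran from -0.37 to 0.027 and MTHFD2 from -0.098 to 0.51 there, and TRIB3 from -0.69 to 0.21 for endoderm against mesoderm. The cause was not tested.

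The labels do not say whether same-numbered libraries were handled together. Their deviations correlated from -0.03 to 0.15, which does not settle it. With the replicate block, edgeR called 9, 3 and 8 of the 9 tested genes against hPSC and 8, 3 and 7 between layers, with 5104, 2803, 3615, 6730, 3647 and 4975 calls over all genes. Of the 10 genes' log2 fold changes under alternatives, 627 kept direction and side of the threshold, 46 lost the call, 5 gained it and 17 changed sign. Depth limits DDIT3 most, with 25 reads in all.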
